A study of Mus musculus with 4 samples.

Results

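Metallothioneins and the enzymes controlled by the transcription factor NRF2 are the main inducible defences of a fibroblast against free metal ions, electrophiles and oxidants. The genes described here are the metallothioneins Mt1 and Mt2 and the NRF2 target genes Nqo1, Gsta4, Gstm1, Hmox1, Gclc, Gclm, Txnrd1 and Srxn1. Every probe set that the platform annotation assigns to exactly 1 of these 10 genes was taken, which gave 20 of the 20393 single-gene probe sets and 10 of the 12394 genes they measure. The rule that picked the probe sets used no measured value, although the 10 genes were proposed with earlier results of these data known. Of the 20 probe sets, 19 reached the level used as a filter in at least 1 array, a log2 level of 4.63, and 1 of the 2 for Mt1 did not. In 16 of the 19 all arrays were above that level, and in the other 3 at least 1 array was below it.

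Metallothioneins are small cysteine-rich proteins that bind zinc, copper and cadmium. Their genes are switched on by zinc through the factor MTF1, which binds metal response elements in their promoters, and they also respond to glucocorticoids and oxidants. NRF2, encoded by Nfe2l2, is held in the cytosol and targeted for degradation by KEAP1. Once released it pairs with a small MAF protein and binds antioxidant response elements, where BACH1 acts as a repressor, above all at Hmox1.

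RNA was measured on 4 Affymetrix mouse arrays, 1 per group, from second-passage cultures of mammary fibroblasts of female FVB/N mice aged 9 weeks. The groups were PyMT Ets2-null (PyMT, Fsp-cre, Ets2db/loxP), PyMT Ets2-present (PyMT, Ets2db/loxP), normal Ets2-null (Fsp-cre, Ets2db/loxP) and normal Ets2-present (Ets2db/loxP) fibroblasts. All 4 groups carried Ets2db, a conventional knockout allele that targets the DNA-binding domain, so the Ets2-present fibroblasts had 1 intact copy. The conditional copy was removed by Cre under the promoter of fibroblast specific protein 1, and because only the Ets2-null groups carried Cre, effects of Cre and of Ets2 loss cannot be told apart. PyMT is the polyoma middle T oncogene, driven in mammary epithelium by the MMTV promoter and not in the fibroblasts themselves. The design asks what loss of Ets2 does in fibroblasts beside oncogene-bearing and normal epithelium. With 1 array per group, every difference below is a difference between 2 arrays, with no replicate, no error and no p-value. How many mice gave each culture is not given in the sources used here.

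The log2 level of Ets2 was 11.22 in PyMT Ets2-null, 11.21 in PyMT Ets2-present, 11.89 in normal Ets2-null and 11.86 in normal Ets2-present fibroblasts. Ets2 has 1 probe set, and its position against the exons removed by Cre is not known, so it does not check the deletion. All 11 fibroblast markers on the array were above the filter level in every array, with medians between 12.22 and 12.73. In PyMT against normal Ets2-null fibroblasts 6 of the 11 were higher and 5 lower, with a median difference of 0.20. The matrix proteoglycan Lum (-5.80), Dcn (-2.41) and Thy1 (-1.90) were at least 2-fold lower there and Pdgfrb (1.01) at least 2-fold higher. Of all 8695 genes above the filter level, 11.2% were so lower and 9.74% so higher. Of the 10 macrophage markers 6, 4, 4 and 5 were under the filter level in PyMT Ets2-null, PyMT Ets2-present, normal Ets2-null and normal Ets2-present fibroblasts, as were between 3 and 5 of the 6 epithelial and at least 4 of the 5 endothelial markers. Correlations between arrays ran between 0.959 and 0.985. The PyMT Ets2-null array stood apart in its 18S ribosomal RNA probe sets, whose mean log2 level was 1.57 above that of the other 3 arrays, and in its bioB, bioC and bioD spike-in controls, which were 0.63 above.

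The promoter windows below are shown because they hold the element types through which MTF1 and NRF2 act. RefSeq windows (GRCm38.p6, 250 bases before the annotated start) were found for 7 of the 10 genes. Capitals mark matches on either strand to the metal response element core, TGCGCNC or TGCACNC, or to the antioxidant response element core, TGACNNNGC. The Mt1 window is chr8:94178839-94179088 and the Mt2 window chr8:94172368-94172617, both on the plus strand. The Gclm window, chr3:122245307-122245556 on the plus strand, is set beside them as that of an NRF2 target gene.
Mt1: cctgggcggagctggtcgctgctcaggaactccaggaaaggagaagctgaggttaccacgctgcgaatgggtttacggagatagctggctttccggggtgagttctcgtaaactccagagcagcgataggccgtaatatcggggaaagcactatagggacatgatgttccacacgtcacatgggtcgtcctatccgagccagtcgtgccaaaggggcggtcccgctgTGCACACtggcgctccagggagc
Mt2: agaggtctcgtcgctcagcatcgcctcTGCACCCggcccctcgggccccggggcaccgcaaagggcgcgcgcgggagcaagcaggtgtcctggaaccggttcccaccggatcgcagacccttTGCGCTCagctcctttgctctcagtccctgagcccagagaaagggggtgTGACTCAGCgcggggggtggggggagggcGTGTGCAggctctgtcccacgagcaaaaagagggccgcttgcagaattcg
Gclm: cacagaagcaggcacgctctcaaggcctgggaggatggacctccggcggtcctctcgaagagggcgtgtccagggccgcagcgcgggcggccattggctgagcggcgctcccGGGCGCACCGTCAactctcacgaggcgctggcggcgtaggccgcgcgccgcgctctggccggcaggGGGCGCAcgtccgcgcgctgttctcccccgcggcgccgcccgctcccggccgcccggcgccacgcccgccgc

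Before its annotated start, Mt1 held 1 match to the metal response element core, 23 to 17 bases upstream, and none to the antioxidant core. Mt2 held 3 metal matches, 223 to 217, 128 to 122 and 50 to 44 bases upstream, and 1 antioxidant match, 79 to 71 bases upstream. Gclm held 2 metal matches and 1 antioxidant match, and the antioxidant match overlaps 1 of the metal matches. Of all 32851 windows in the table, 21.4% held at least 1 metal match, 5.17% at least 2, and 10.2% at least 1 antioxidant match. Srxn1 held 1 metal match, both overlapping Gstm1 windows held the same single metal match, 1 of the 3 Txnrd1 windows held an antioxidant match, and the Nqo1 window held neither. A match describes letters only, and its absence says nothing about whether a factor binds there.

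Because the annotated start of Mt1 lies close to further matches, the 50 bases after each start were searched as well, a choice made after the first window was seen. Positions are relative to the annotated start alone, and where transcription of Mt1 begins in these cultures was not measured. The matches below may thus lie before the start in use. Mt1 gained 2 metal matches, at chr8:94179091-94179115 on the plus strand, which are shown here with the bases between them.
Mt1 after the start: TGCACTCcgcccgaaaagTGCGCTC

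With these the 300-base windows held 3 metal matches in Mt1 and 4 in Mt2, and 1.97% and 0.517% of all windows held at least 3 and at least 4. Gclm gained 1 metal match, for 3 in all, and Srxn1 gained its only antioxidant match. The 300-base Nqo1 window again held neither.

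Both metallothioneins were lower in PyMT than in normal fibroblasts, and Mt1 was lowest where Ets2 was also lost. Mt1 (1422557_s_at) had a log2 level of 8.21 in PyMT Ets2-null, 10.28 in PyMT Ets2-present, 11.78 in normal Ets2-null and 11.08 in normal Ets2-present fibroblasts. The PyMT Ets2-null array was the lowest by a wide gap, and both PyMT arrays lay below both normal arrays. Without Ets2, Mt1 was 4.20-fold lower in PyMT fibroblasts (log2 difference -2.07) and 1.63-fold higher in normal fibroblasts (0.71). PyMT fibroblasts had 11.9-fold less Mt1 than normal ones among Ets2-null cultures (-3.57) and 1.73-fold less among Ets2-present cultures (-0.79). Mt1 included, 45 of the 14031 probe sets above the filter level (0.321%) were at least as low in the Ets2-null comparison of PyMT with normal, and 118 (0.841%) in the Ets2 comparison in PyMT fibroblasts. In RNA of whole cultures, fewer cells that express a gene and less RNA per cell cannot be told apart.

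Mt2 (1428942_at) had log2 levels of 8.62 in PyMT Ets2-null, 8.88 in PyMT Ets2-present, 10.89 in normal Ets2-null and 10.38 in normal Ets2-present fibroblasts. Its arrays fell in the same order as those of Mt1, but the large gap was between the PyMT and the normal arrays. It was 4.82-fold lower in PyMT than in normal fibroblasts without Ets2 (-2.27) and 2.83-fold lower with Ets2 (-1.50). These differences were matched or exceeded by 1.38% and 2.16% of probe sets. The Ets2 differences of Mt2 were -0.26 in PyMT and 0.51 in normal fibroblasts, both under 2-fold. Set side by side, the PyMT differences without Ets2 were -3.57 for Mt1 and -2.27 for Mt2, and those with Ets2 were -0.79 for Mt1 and -1.50 for Mt2.

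**Figure D1:**
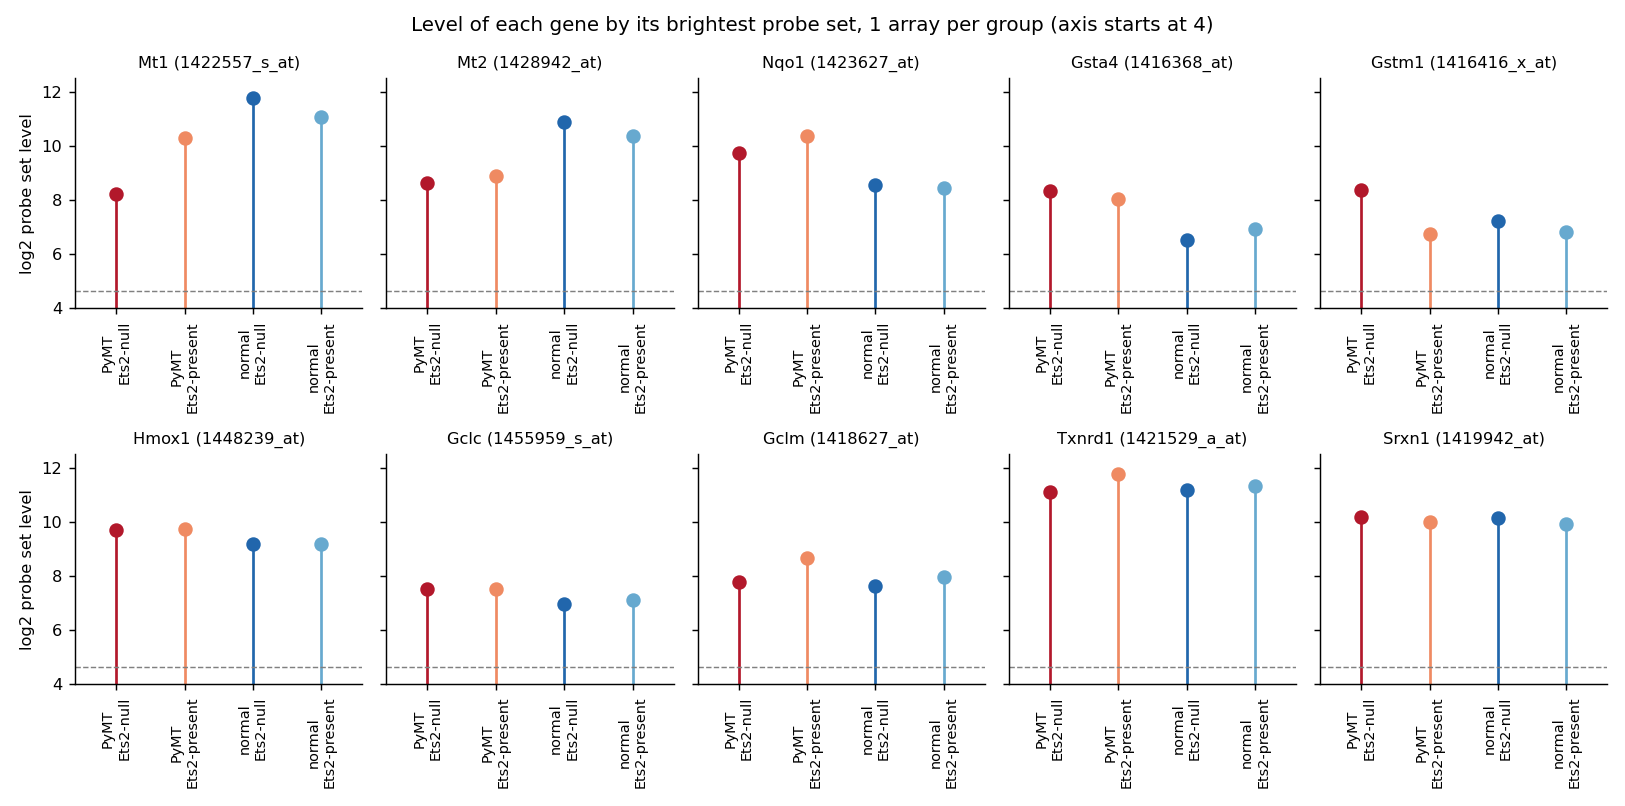
Log2 level (vertical axis, starting at 4) of each of the 10 genes by its brightest probe set in the 4 arrays, 1 point per array with no error bar since each group has 1 array; the dashed line is the filter level of 4.63. Mt1 reaches 8.21 in PyMT Ets2-null and 11.78 in normal Ets2-null fibroblasts, while Nqo1 and Gsta4 are higher in both PyMT arrays than in both normal arrays.

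A second Mt1 probe set (1451612_at) was under the filter level in all 4 arrays, at 4.52 in PyMT Ets2-null, 3.31 in PyMT Ets2-present, 2.91 in normal Ets2-null and 2.73 in normal Ets2-present fibroblasts. Its highest array, PyMT Ets2-null, was the lowest of the bright probe set, at a signal near background, and this second probe set was left out of the main 2-fold counts. The suffix of 1422557_s_at marks a probe set that can match several related transcripts, so signal from a near-identical copy could not be separated. The 18S probe sets, highest in the PyMT Ets2-null array where Mt1 was lowest, averaged 9.63 there and 8.16, 7.94 and 8.08 in PyMT Ets2-present, normal Ets2-null and normal Ets2-present fibroblasts, and the bioB, bioC and bioD spike-ins averaged 11.35 there and 10.81, 10.56 and 10.77. The part of these controls in the Mt1 difference was not tested. Of the markers of other cell types, the epithelial keratin Krt18 was also lower in PyMT than in normal fibroblasts, with differences of -2.24 without Ets2 and -3.82 with Ets2. The endothelial receptor Kdr was lower too, with differences of -2.45 and -2.17. Both genes were under the filter level in both PyMT arrays. The other markers of these lists that passed the filter, Epcam, Krt14, Krt5 and Tek, differed by 1.02, 1.32, 0.45 and 1.43 without Ets2. With Ets2 they differed by -0.48, -0.40, 0.76 and 0.80. Epcam, Krt14 and Tek were above the filter level in PyMT Ets2-null fibroblasts alone, the array where they were high. Their differences without Ets2 are thus set against values under that level, and those with Ets2 lie between such values. Krt5 was above the filter level in every array. Over the whole lists, summed linear levels were 152, 114, 176 and 337 for the 6 epithelial and 99.5, 84.4, 152 and 107 for the 5 endothelial markers, in PyMT Ets2-null, PyMT Ets2-present, normal Ets2-null and normal Ets2-present fibroblasts. Without Krt18 the epithelial sums were 130, 95.2, 70.6 and 70.8 in the same order of groups. Without Kdr the endothelial sums were 79.0, 69.0, 40.5 and 37.8. The part of these epithelial and endothelial markers in the metallothionein differences was not tested.

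Among genes of zinc and copper handling, 18 of the 21 on the array were above the filter level, and few differed by 2-fold. Counts lower and higher were 1 and 1 for Ets2 in PyMT fibroblasts, 0 and 0 for Ets2 in normal fibroblasts, 1 and 1 for PyMT without Ets2, and 0 and 0 for PyMT with Ets2. Over all 8695 genes above the filter level, the shares 2-fold lower and higher were 7.77% and 7.68% for Ets2 in PyMT, 2.40% and 3.02% for Ets2 in normal, 11.2% and 9.74% for PyMT without Ets2, and 6.21% and 5.45% for PyMT with Ets2. Slc30a1 encodes the zinc exporter ZnT1, itself a target of MTF1. Its log2 level was 3.80 in PyMT Ets2-null, 5.49 in PyMT Ets2-present, 5.20 in normal Ets2-null and 5.90 in normal Ets2-present fibroblasts. As for both metallothioneins the PyMT Ets2-null array was the lowest, here under the filter level, with differences of -1.70 for Ets2 in PyMT and -1.41 for PyMT without Ets2. Mtf1 itself was near the filter level, at 4.39 in PyMT Ets2-null, 5.12 in PyMT Ets2-present, 4.80 in normal Ets2-null and 5.18 in normal Ets2-present fibroblasts. Slc31a2, a copper transporter of internal membranes, had levels of 6.83, 5.79, 5.15 and 5.58 in the same order of groups, highest in PyMT Ets2-null fibroblasts (1.03 over PyMT Ets2-present and 1.67 over normal Ets2-null).

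Of 6 glucocorticoid response genes, all above the filter level, Fkbp5, a co-chaperone of the glucocorticoid receptor that is induced by the hormone, was the one past 2-fold. Its log2 level was 6.36 in PyMT Ets2-null, 6.22 in PyMT Ets2-present, 7.40 in normal Ets2-null and 7.71 in normal Ets2-present fibroblasts. Like Mt2, it was lower in both PyMT arrays than in both normal arrays, with differences of -1.04 without Ets2 and -1.50 with Ets2. The medians of the 6 genes were -0.24 and -0.17 in those comparisons, where 11.2% and 6.21% of all genes were at least 2-fold lower.

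The detoxifying enzymes Nqo1 and Gsta4 ran the other way from the metallothioneins. Nqo1, which reduces quinones by a pair of electrons at once and is a standard readout of NRF2 activity, had log2 levels of 9.73 in PyMT Ets2-null, 10.36 in PyMT Ets2-present, 8.55 in normal Ets2-null and 8.46 in normal Ets2-present fibroblasts. Both PyMT arrays were above both normal arrays. Nqo1 was 2.26-fold higher in PyMT than in normal fibroblasts without Ets2 (1.17) and 3.72-fold higher with Ets2 (1.90), a difference that 0.877% of probe sets matched or exceeded. Its Ets2 differences were -0.63 in PyMT and 0.09 in normal fibroblasts.

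Gsta4, a glutathione transferase that conjugates the lipid peroxidation product 4-hydroxynonenal, had log2 levels of 8.34 in PyMT Ets2-null, 8.03 in PyMT Ets2-present, 6.52 in normal Ets2-null and 6.92 in normal Ets2-present fibroblasts. Again both PyMT arrays were the higher ones. The PyMT differences were 3.55-fold (1.83) without Ets2 and 2.16-fold (1.11) with Ets2. Without Ets2, Gsta4 was 0.31 higher in PyMT and lower by 0.40 in normal fibroblasts, both within 2-fold.

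Gstm1, a mu-class glutathione transferase, was highest in the PyMT Ets2-null array by its brighter probe sets. The brightest (1416416_x_at) stood at 8.37 in PyMT Ets2-null, 6.76 in PyMT Ets2-present, 7.22 in normal Ets2-null and 6.83 in normal Ets2-present fibroblasts. It was 3.06-fold higher without Ets2 in PyMT fibroblasts (1.61) and 1.31-fold higher in normal fibroblasts (0.38). The next (1448330_at) stood at 6.63, 5.77, 6.10 and 5.47 in the same order of groups, with Ets2 differences of 0.87 in PyMT and 0.63 in normal fibroblasts. The direction was thus shared by both, and the size was not. The remaining probe sets were each under the filter level in 3 arrays. Of these, 1425626_at reached 4.77 in PyMT Ets2-null and at most 3.10 elsewhere, and 1425627_x_at reached 4.74 in normal Ets2-present and at most 3.42 elsewhere. The mu-class genes are close in sequence, and the suffix x marks probes that can match other transcripts, so the Gstm1 values cannot be assigned to this gene alone.

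Hmox1, the inducible heme oxygenase, had log2 levels of 9.69 in PyMT Ets2-null, 9.75 in PyMT Ets2-present, 9.18 in normal Ets2-null and 9.19 in normal Ets2-present fibroblasts. It was 0.51 higher in PyMT than in normal fibroblasts without Ets2 and 0.56 higher with Ets2, both under 2-fold. Its Ets2 differences were -0.06 in PyMT and -0.01 in normal fibroblasts, the first of which turned positive when arrays were centred on their medians and the second under all 3 other scalings.

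Gclc and Gclm encode the catalytic and the modifier subunit of glutamate-cysteine ligase, the rate-limiting enzyme of glutathione synthesis. Gclc (1455959_s_at) stood at 7.50 in PyMT Ets2-null, 7.51 in PyMT Ets2-present, 6.94 in normal Ets2-null and 7.12 in normal Ets2-present fibroblasts. Its second probe set (1424296_at) stood at 6.95, 6.63, 5.79 and 6.07 in the same order of groups. Both were higher in PyMT than in normal fibroblasts, by 0.56 and 1.15 without Ets2 and by 0.40 and 0.56 with Ets2, and the second was past 2-fold in the Ets2-null comparison. The Ets2 difference of 1455959_s_at in PyMT fibroblasts, -0.02, turned positive under the 3 other scalings. Gclm (1418627_at) stood at 7.76 in PyMT Ets2-null, 8.65 in PyMT Ets2-present, 7.62 in normal Ets2-null and 7.94 in normal Ets2-present fibroblasts. The PyMT Ets2-present array was the highest, 0.90 above PyMT Ets2-null and 0.71 above normal Ets2-present fibroblasts, both under 2-fold. The subunits thus did not share an order: the Ets2 differences in PyMT fibroblasts were -0.90 for Gclm and -0.02 and 0.32 for the Gclc probe sets.

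Txnrd1, the cytosolic selenoprotein that keeps thioredoxin reduced, was highest in the PyMT Ets2-present array by all 3 of its probe sets. The brightest (1421529_a_at) stood at 11.10 in PyMT Ets2-null, 11.77 in PyMT Ets2-present, 11.19 in normal Ets2-null and 11.33 in normal Ets2-present fibroblasts. A second (1424486_a_at) stood at 5.26, 6.76, 5.59 and 5.51 and the dimmest (1424487_x_at) at 4.09, 5.54, 4.74 and 4.21 in the same order of groups. The Ets2 difference in PyMT fibroblasts was -0.67 by the brightest and -1.50 and -1.46 by the dimmer probe sets. Txnrd1 was 0.44, 1.25 and 1.33 higher by the same probe sets in PyMT than in normal fibroblasts with Ets2. Without Ets2 these differences were -0.09, -0.33 and -0.66, and the first turned positive with arrays centred on their medians. In 2 arrays the dimmest was under the filter level, whereas 1424486_a_at was above it in all 4.

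Srxn1, sulfiredoxin, which restores overoxidized peroxiredoxins, was the most even of the 10 genes. Its brightest probe set (1419942_at) stood at 10.18 in PyMT Ets2-null, 9.97 in PyMT Ets2-present, 10.12 in normal Ets2-null and 9.92 in normal Ets2-present fibroblasts. The differences of this and the next 2 probe sets all lay between -0.32 and 0.26. The dimmest (1425351_at) stood apart, at 4.83 in PyMT Ets2-null, 5.43 in PyMT Ets2-present, 6.13 in normal Ets2-null and 4.95 in normal Ets2-present fibroblasts. Its high value in normal Ets2-null fibroblasts had no counterpart in the other Srxn1 probe sets.

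**Figure D2:**
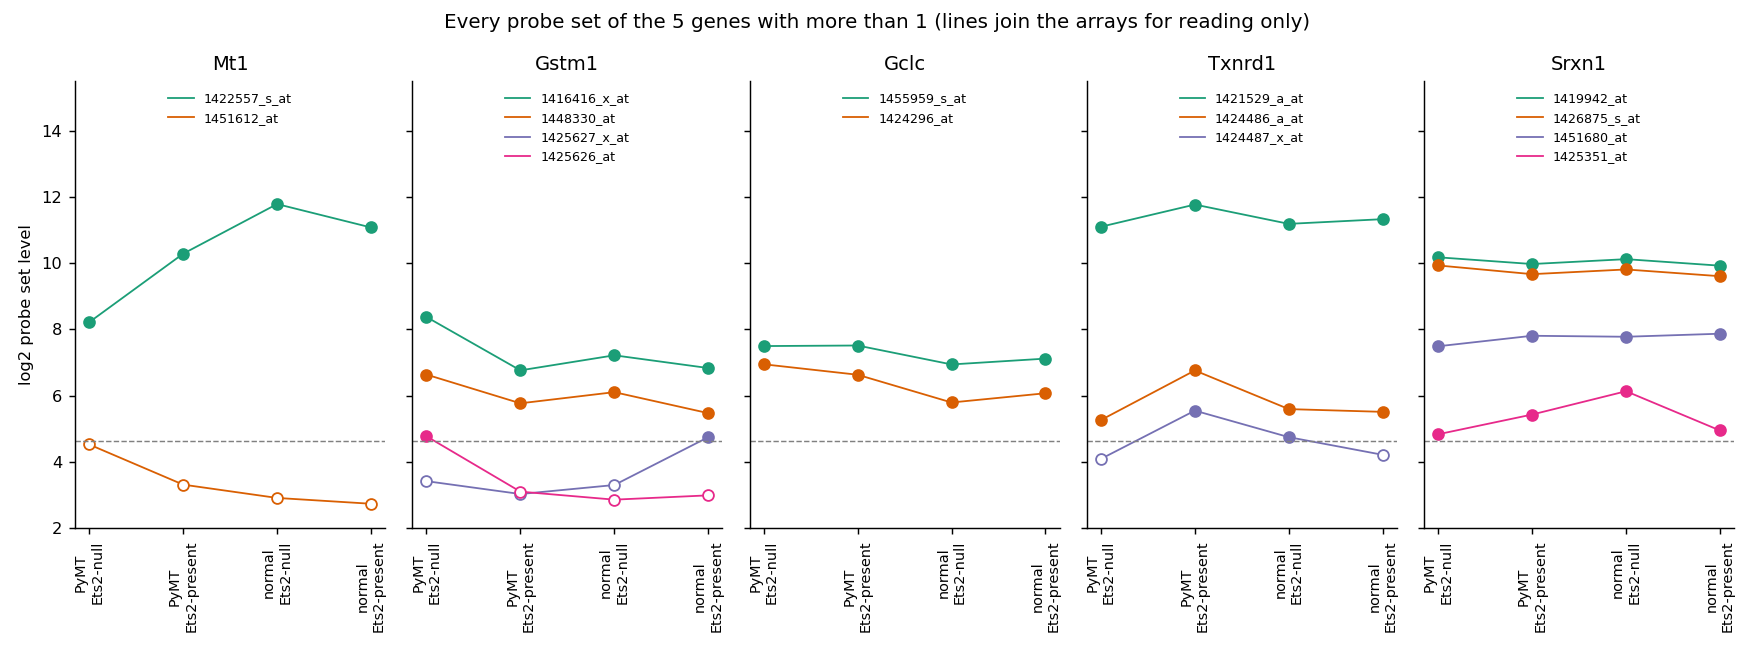
Log2 level (vertical axis) in the 4 arrays of every probe set of the 5 genes that have more than 1; open points are under the filter level of 4.63 (dashed line). The probe sets of Txnrd1 share their highest array, PyMT Ets2-present, whereas PyMT Ets2-null is the lowest array of the bright and the highest of the dim Mt1 probe set and 1 of the 4 for Srxn1 departs from the rest.

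Counted over the 19 probe sets above the filter level, loss of Ets2 in PyMT fibroblasts left 3 at least 2-fold lower (Mt1 and the dimmer Txnrd1 probe sets), beside 8.30% of all 14031, and 2 at least 2-fold higher (both Gstm1), beside 7.19%. In normal fibroblasts loss of Ets2 left 1 at least 2-fold lower (Gstm1 1425627_x_at), beside 2.74%, and 1 higher (Srxn1 1425351_at), beside 2.81%. Neither of these is the brightest probe set of its gene. In Ets2-null fibroblasts PyMT went with 3 lower (Mt1, Mt2 and Srxn1 1425351_at), beside 10.9%, and 5 higher (Nqo1, Gsta4, Gclc 1424296_at and Gstm1 by 2), beside 9.73%. In Ets2-present fibroblasts it went with 2 lower (Mt2 and Gstm1 1425627_x_at), beside 5.93%, and 4 higher (Nqo1, Gsta4 and the dimmer Txnrd1 probe sets), beside 5.52%. Several of these counts come from repeated probe sets of 1 gene. Gstm1 1425626_at passed the filter only through PyMT Ets2-null and 1425627_x_at only through normal Ets2-present fibroblasts, the arrays where they were high. Their 2-fold calls are set against values under the filter level. With low values raised to that level, their called differences shrank to 0.14 and -0.11. By the brightest probe set of each gene, 1 of 10 was lower and 1 higher for Ets2 in PyMT, 0 and 0 for Ets2 in normal, 2 and 3 for PyMT without Ets2, and 1 and 2 for PyMT with Ets2. Beside these stand, in the same order, 7.77% and 7.68%, 2.40% and 3.02%, 11.2% and 9.74%, and 6.21% and 5.45% of all 8695 genes.

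The median difference of the 19 probe sets was -0.06 for Ets2 in PyMT fibroblasts and 0.08 for Ets2 in normal fibroblasts, beside 0.00 and -0.04 for all probe sets above the filter level. For PyMT the medians were 0.12 without Ets2 and 0.40 with Ets2, beside 0.05 and -0.01. With Ets2, 14 of the 19 were higher and 5 lower in PyMT fibroblasts, beside 50.5% lower among all probe sets above the filter level. Without Ets2, 12 of the 19 were higher and 7 lower, beside 47.7% lower among all. The 19 repeat some genes, and by the brightest probe set of each gene 7 of 10 were higher and 3 lower in both comparisons. The PyMT comparisons use different arrays from each other, as do the Ets2 comparisons, but each PyMT comparison shares an array with each Ets2 comparison. As a measure of how far repeated measures of 1 gene disagree, the 2 brightest probe sets of 3378 genes differed with an SD of 0.69 for Ets2 in PyMT, 0.48 for Ets2 in normal, 0.70 for PyMT without Ets2 and 0.51 for PyMT with Ets2. This SD is not a replicate error. Centring each array on its median moved the median of all probe sets by 0.11 for Ets2 in PyMT fibroblasts and turned the split of 2-fold calls to 6.68% lower and 8.89% higher, while the counts for the 10 genes stayed at 3 and 2.

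**Figure D3:**
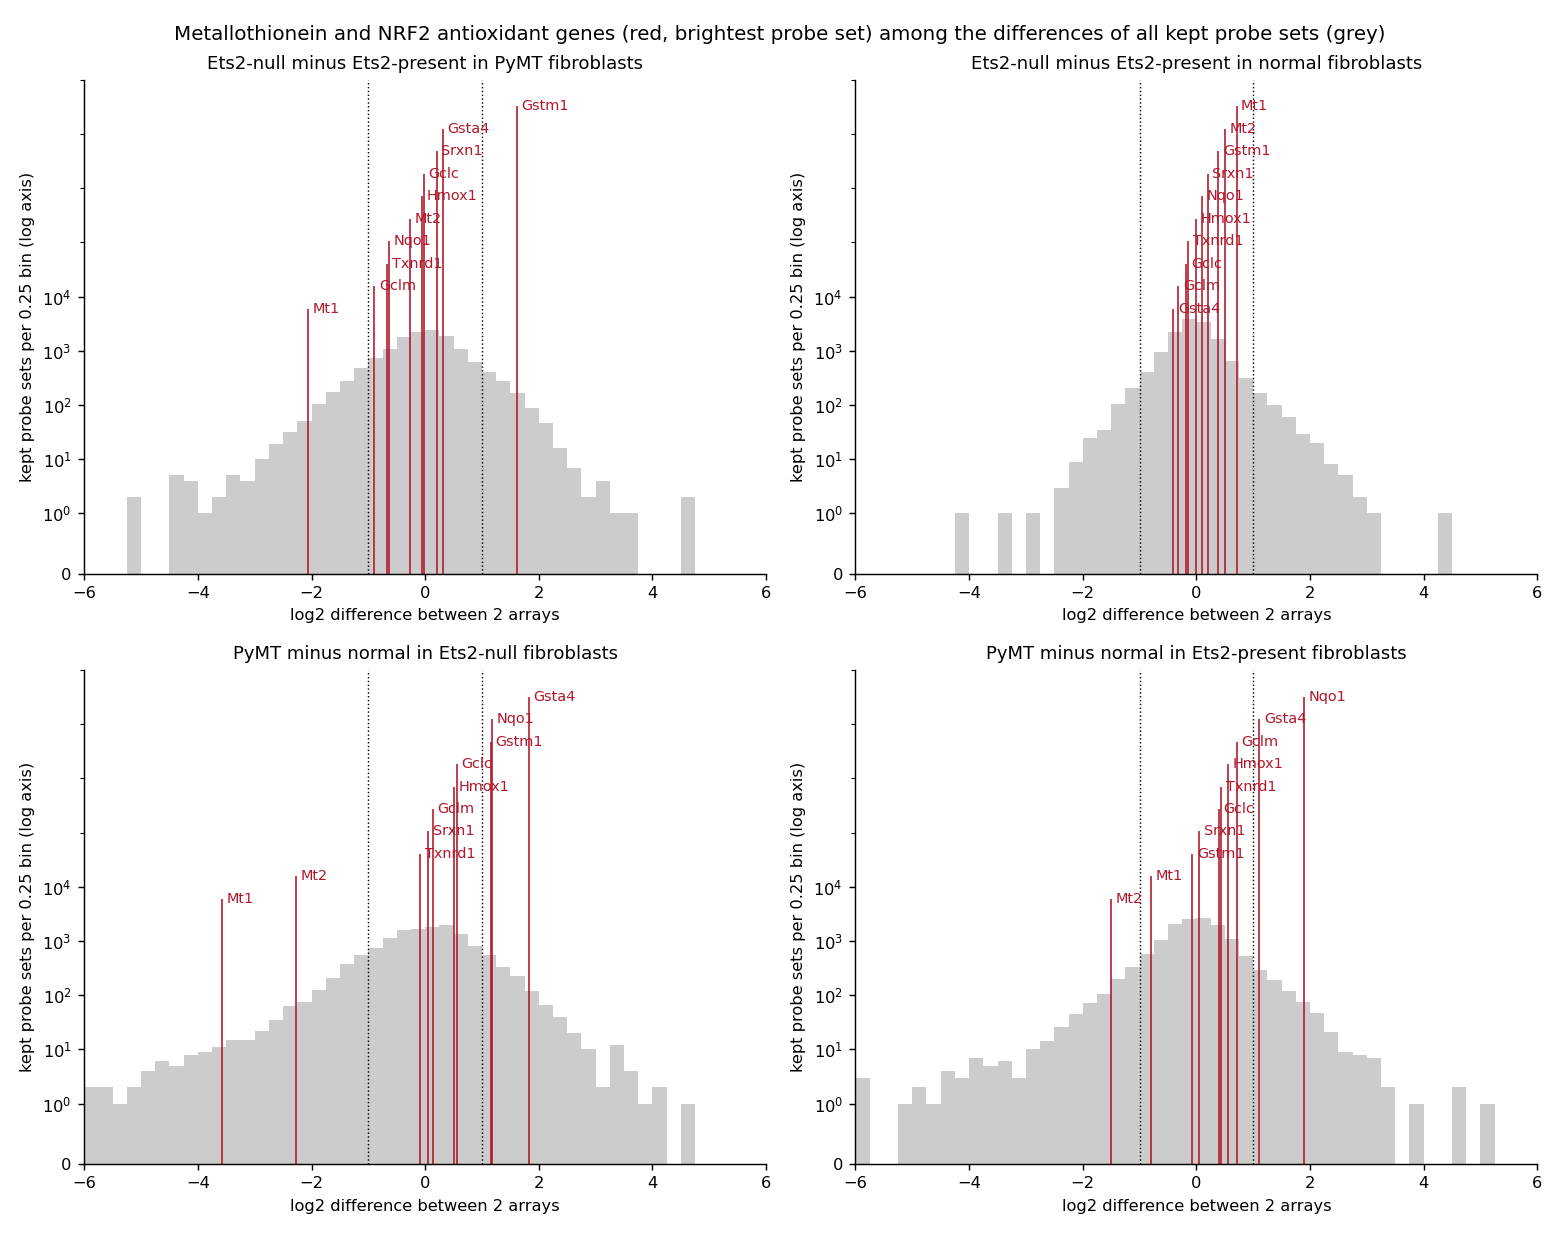
Numbers of probe sets above the filter level (vertical log axis) by log2 difference in each of the 4 comparisons (grey; values beyond -6 or 6 are drawn in the end bins), with the brightest probe set of each of the 10 genes as a red line whose height serves only to separate the labels; dotted lines mark 2-fold. Mt1 lies at -2.07 for Ets2 in PyMT fibroblasts and at -3.57 for PyMT without Ets2, where Nqo1, Gsta4 and Gstm1 are past 2-fold on the other side.

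The Ets2 difference in PyMT fibroblasts less the one in normal fibroblasts came to -2.78 for Mt1, a value that 85 probe sets (0.606%) matched or passed, and -0.77 for Mt2. The subtraction gave 1.23 for the brightest Gstm1 probe set, 0.72 for Gsta4, -0.72 for Nqo1, -0.58 for Gclm and -0.53 for the brightest Txnrd1 probe set. It was near 0 for Hmox1 (-0.04) and the brightest Srxn1 probe set (0.01). The Gclc probe sets gave 0.16 (1455959_s_at) and 0.595 (1424296_at). The dimmer Txnrd1 probe sets gave -1.58 (1424486_a_at) and -1.99 (1424487_x_at). The other Srxn1 probe sets gave 0.06 (1426875_s_at), -0.225 (1451680_at) and -1.78 (1425351_at). The other Gstm1 probe sets gave 0.23 (1448330_at), 1.83 (1425627_x_at) and 1.80 (1425626_at). The subtraction carries the noise of 4 arrays, and repeated probe sets of 1 gene disagreed in it with an SD of 0.86.

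The mRNAs of NRF2, KEAP1 and BACH1 stayed within 2-fold in all 4 comparisons. Nfe2l2 had log2 levels of 9.72 in PyMT Ets2-null, 9.27 in PyMT Ets2-present, 9.38 in normal Ets2-null and 9.69 in normal Ets2-present fibroblasts. Keap1 stood at 8.63, 8.02, 8.30 and 8.55 and Bach1 at 10.85, 10.78, 11.17 and 11.16 in the same order of groups. The differences of these 3 genes all lay between -0.54 and 0.61. Among the 9 regulators, all above the filter level, the counts 2-fold lower and higher were 1 and 0 for Ets2 in PyMT, 0 and 0 for Ets2 in normal, 0 and 2 for PyMT without Ets2, and 0 and 1 for PyMT with Ets2. The shares over all 8695 genes were, in the same order, 7.77% and 7.68%, 2.40% and 3.02%, 11.2% and 9.74%, and 6.21% and 5.45%. The small MAF gene Maff stood at 8.86 in PyMT Ets2-null, 10.08 in PyMT Ets2-present, 8.34 in normal Ets2-null and 8.32 in normal Ets2-present fibroblasts. Like Txnrd1 and Gclm it was highest in PyMT Ets2-present fibroblasts, by 1.22 over PyMT Ets2-null and 1.76 over normal Ets2-present. Mafk, another small MAF gene, was 1.34 higher and Sqstm1, an autophagy receptor that binds KEAP1, 1.06 higher in PyMT than in normal fibroblasts without Ets2.

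Of 25 other NRF2 target genes above the filter level, 2 were at least 2-fold lower and 1 higher for Ets2 in PyMT, 0 and 0 for Ets2 in normal, 3 and 2 for PyMT without Ets2, and 0 and 1 for PyMT with Ets2. Of all 8695 genes, 7.77% and 7.68%, 2.40% and 3.02%, 11.2% and 9.74%, and 6.21% and 5.45% were so in these comparisons. The medians of the 25 genes were 0.08, 0.09, -0.07 and 0.00. Slc7a11, the cystine importer that feeds glutathione synthesis, was 4.58 in PyMT Ets2-null, 6.22 in PyMT Ets2-present, 5.77 in normal Ets2-null and 5.81 in normal Ets2-present fibroblasts. The PyMT Ets2-null array was the low one and lay under the filter level. It was also the low one for Blvra, biliverdin reductase, which acts after heme oxygenase (6.34, 7.60, 7.50 and 7.65 in the same order of groups). Blvra was above the filter level in every array. Ephx1, an epoxide hydrolase, was the reverse, at 10.12 in PyMT Ets2-null, 8.42 in PyMT Ets2-present, 8.82 in normal Ets2-null and 9.32 in normal Ets2-present fibroblasts. In that it resembled Gstm1, which was also highest in PyMT Ets2-null fibroblasts. Aldh3a1, an aldehyde dehydrogenase, was 5.91 in PyMT Ets2-null, 5.21 in PyMT Ets2-present, 3.94 in normal Ets2-null and 3.02 in normal Ets2-present fibroblasts. It was above the filter level in the PyMT arrays alone and so passed the filter through the arrays where it was high. The differences of 1.97 without Ets2 and 2.19 with Ets2 are set against values under that level. Osgin1 was 1.42 lower in PyMT than in normal fibroblasts without Ets2, and its PyMT Ets2-null value (4.50) was under the filter level.

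Few enzymes against oxidants that are not classed here as NRF2 targets were past 2-fold. Of 19 above the filter level, 0 were past 2-fold in 3 comparisons, and 1, the thioredoxin glutathione reductase Txnrd3, was 1.02 lower in PyMT than in normal fibroblasts with Ets2, beside 6.21% of all genes, from values under the filter level in 3 arrays. Their medians were -0.07 for Ets2 in PyMT, 0.03 for Ets2 in normal, -0.11 for PyMT without Ets2 and 0.20 for PyMT with Ets2.

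**Figure D4:**
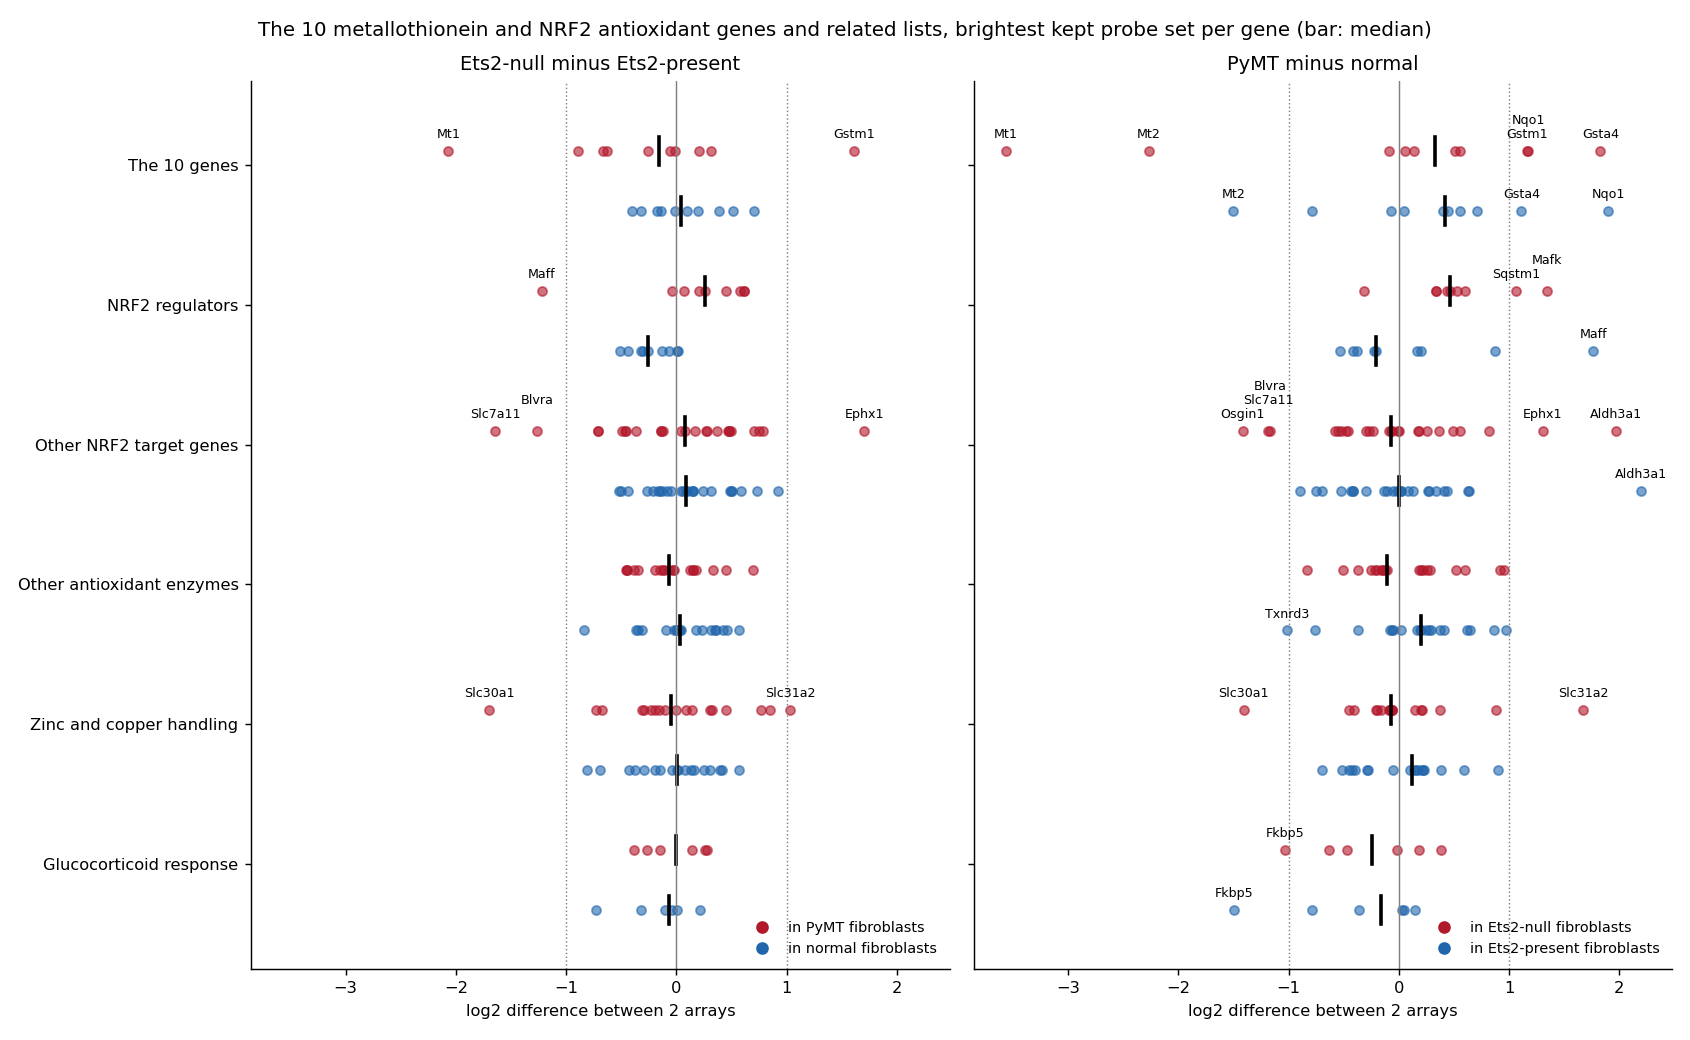
Log2 differences (horizontal axis) of the 10 genes and of 5 related gene lists, 1 point per gene above the filter level by its brightest probe set (red in PyMT or in Ets2-null fibroblasts, blue in normal or in Ets2-present ones), with a bar at each median and dotted lines at 2-fold; named points are past 2-fold. The metallothioneins lie at the far low end of the PyMT comparison without Ets2 (-3.57 and -2.27), while the list medians lie between -0.26 and 0.46.

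Macrophage markers did not all run one way. Of the 8 above the filter level, 7 were higher and 1 lower in PyMT than in normal fibroblasts with Ets2 (median 1.05), and 3 were higher and 5 lower without Ets2 (median -0.19), among them Cd68 (-1.54) and Cd14 (-1.37). For loss of Ets2 in PyMT fibroblasts 1 was higher and 7 lower (median -0.84). Several of these differences are set against values under the filter level. Cd68 was above it in normal Ets2-null fibroblasts alone, Adgre1 in PyMT Ets2-present alone and Ptprc in PyMT Ets2-null alone, each the array where it was high. Cd14 (4.51) and Msr1 (3.88) were under it in PyMT Ets2-null fibroblasts. Lyz2, the lysozyme of macrophages, had log2 levels of 9.09 in PyMT Ets2-null, 9.13 in PyMT Ets2-present, 7.11 in normal Ets2-null and 7.39 in normal Ets2-present fibroblasts. Both PyMT arrays were thus above both normal arrays, as for Nqo1, Gsta4, Hmox1 and Gclc. The summed linear levels of the 10 macrophage markers were 785, 1137, 433 and 481 in the same order of groups, and without Lyz2 they were 240.5, 576, 295 and 313. Csf1r, the receptor that macrophages need, was highest in PyMT Ets2-present fibroblasts (8.12), against 6.19 in PyMT Ets2-null, 6.54 in normal Ets2-null and 6.95 in normal Ets2-present fibroblasts. The adipocyte lipid carrier Fabp4, also made by macrophages, was 3.17 and 2.32 higher in PyMT than in normal fibroblasts without and with Ets2, whereas the adipocyte markers Adipoq, Cidec and Retn were under the filter level in every array. The part of these markers in the differences of Nqo1, Gsta4, Hmox1, Gclc, Gclm and Txnrd1 was not tested.

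The genes most like each of the 10 were sought among 3035 others with a range of at least 1 over the 4 arrays, by the root mean square (RMS) distance between centred profiles. Each profile has 4 points, so the distances are descriptions only. Nearest to Mt1 were Scara3 (RMS 0.23), Grem1 (0.25) and Gem (0.25). Nearest to Mt2 were Iqgap3 (0.030), Icosl (0.091) and Gap43 (0.092), and nearest to Nqo1 were Tafa5 (0.049), Clec4n (0.077) and Ctss (0.090). Gsta4 was closest to Smpdl3a (0.031), Smtn (0.067) and Pmaip1 (0.086), Gstm1 to Klk11 (0.045), Ripply3 (0.045) and Nr5a2 (0.049), and Gclm to Ier3 (0.049), Arhgap29 (0.065) and Osgin2 (0.073). Txnrd1 was closest to Rell1 (0.13), Plekhg2 (0.14) and Mical2 (0.14), and Hmox1 to S100a16 (0.16), Dpep1 (0.16) and Cdr2 (0.17). Gclc was closest to S100a16 (0.16), Synj2 (0.17) and Rhob (0.17), and Srxn1 to Vps72 (0.27), Smarca2 (0.29) and Emilin1 (0.29). Several of these profiles rest partly on values under the filter level. Klk11, Ripply3 and Nr5a2 were above it in PyMT Ets2-null fibroblasts alone, and Clec4n in PyMT Ets2-present alone, where each was high. Iqgap3, Icosl and Gap43 were under it in both PyMT arrays, Tafa5 in both normal arrays and Vps72 in both Ets2-present arrays. Scara3 and Gem were under it in PyMT Ets2-null and Smtn in normal Ets2-null fibroblasts. Among the 10 genes themselves the closest pairs were Hmox1 with Gclc (0.067) and Gclm with Txnrd1 (0.16).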

How the data were processed

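RNA from mammary fibroblasts of 4 groups was hybridised to 1 array each. The authors deposited log2 probe set levels computed by RMA, with no version stated; RMA corrects background, normalizes between arrays and summarizes each probe set. The genome build behind the array is not given in the sources used here, and scanner files were not used here. The table held 22690 probe sets, 64 of them controls, with values between 1.42 and 14.8 and array medians of 5.63 for PyMT Ets2-null, 5.74 for PyMT Ets2-present, 5.72 for normal Ets2-null and 5.74 for normal Ets2-present fibroblasts.

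The platform annotation named 1 gene for 20393 probe sets, more than 1 for 691 and none for 1606. RefSeq matched 20364 by Entrez ID and changed 0 symbols. The filter kept the 14031 probe sets with at least 1 value at or above 4.63, the 40th percentile of all values. Differences were taken as Ets2-null minus Ets2-present and PyMT minus normal, and counted at 2-fold. Where 1 value per gene was needed, the brightest probe set (by its mean) was taken. All 10 genes were named with every probe set, the regulators Nfe2l2, Keap1, Bach1 and Mtf1 in any case, other genes of the pathway lists if 2-fold apart in at least 1 comparison, and the 3 genes nearest to each. Cell type markers were named after their values were seen. The 10 genes, the lists and the comparisons were chosen with earlier results of these data known. With 1 array per group no test was run, and the number of arrays limits the precision.

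Alternatives were other filters, low values raised to the filter level, cyclic loess, quantile normalization (limma 3.58.1 in R 4.3.3), median centring and counting by gene. Differences and counts (Python 3.11.15, pandas 2.3.3, numpy 2.4.6) were tested on simulated data. Promoter windows came from RefSeq (GRCm38.p6); Gsta4, Hmox1 and Gclc had no entry.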

Additional observations from a re-analysis of the deposited data

Results flagged for a closer look

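In 3 probe sets the same contrast ran in opposite directions, by at least 1.5-fold each way, in its 2 settings. Each setting has 1 array per group, so the difference between settings was not tested. For Mt1 (1422557_s_at) the Ets2 difference was -2.07 in PyMT and 0.71 in normal fibroblasts. For Srxn1 (1425351_at) it was -0.60 in PyMT and 1.19 in normal fibroblasts, and the other Srxn1 probe sets did not share this. For Txnrd1 (1424487_x_at) the PyMT difference was -0.66 without Ets2 and 1.33 with Ets2, from values under the filter level in 2 arrays; the brightest Txnrd1 probe set gave -0.09 and 0.44.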

How the results depend on the processing

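No paired analysis was possible because each group has 1 array. Cyclic loess, quantile normalization and median centring left the 2-fold counts of the 10 genes as they were. With the filter at the 60th percentile, counts lower and higher were 1 and 1 for Ets2 in PyMT (main 3 and 2), 0 and 0 for Ets2 in normal (main 1 and 1), 2 and 4 for PyMT without Ets2 (main 3 and 5) and 1 and 2 for PyMT with Ets2 (main 2 and 4). With low values raised to the filter level, they were 2 and 1, 0 and 1, 3 and 4, and 1 and 3. By the brightest probe set per gene they were 1 and 1, 0 and 0, 2 and 3, and 1 and 2, and by the mean over a gene's probe sets 2 and 1, 0 and 0, 2 and 2, and 1 and 3. These settings count fewer or raised values.

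Of 465 values of single probe sets under the alternatives, 454 moved by less than the SD between probe sets of 1 gene and 11 moved by more, all 11 with low values raised and in probe sets under the filter level in at least 2 arrays. Of the 465, 65 came from the stricter filter, which cannot change a difference. Raising low values can change only probe sets with a value under the filter level. The 465 include the second Mt1 probe set (1451612_at), which was left out of the main 2-fold counts. Over all alternatives the Mt1 difference lay between -2.07 and -1.96 for Ets2 in PyMT and between -3.60 and -3.48 for PyMT without Ets2. Over all probe sets, the stricter filter left 480 lower and 315 higher for Ets2 in PyMT (main 1164 and 1009), 94 and 105 for Ets2 in normal (main 384 and 394), 736 and 504 for PyMT without Ets2 (main 1530 and 1365) and 407 and 290 for PyMT with Ets2 (main 832 and 774). With no filter 1548 were higher for Ets2 in PyMT, and 613 lower and 600 higher for Ets2 in normal. With low values raised, 545 were higher for Ets2 in PyMT, 185 lower and 207 higher for Ets2 in normal, 840 higher for PyMT without Ets2 and 495 higher for PyMT with Ets2. Medians of related lists near 0 could change sign under the other scalings. For Ets2 in PyMT, the zinc and copper handling median of -0.05 became 0.01 with cyclic loess. There the glucocorticoid response median of -0.002 became 0.03 with cyclic loess and 0.04 with quantile normalization. With arrays centred on their medians, the zinc and copper handling median for PyMT without Ets2 went from -0.0735 to 0.0155.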
